A study of Mus musculus with 20 samples.

Results

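Lratd1 (LRAT domain containing 1; older symbol Fam84a) was followed here in mouse spinal cord, by genotype and by stage of an induced autoimmune disease. Every feature of the deposited table that the platform annotation names Lratd1 was taken: probes 11761 and 26403, 2 of 44290 features, for 1 of 19087 named genes. The gene was chosen by its deposited ratios, which were higher in transgenic (TG) than in wild type (WT) animals at all 3 disease stages, so those genotype values are given as a description, without a test. RNA of 23 female C57BL/6 mice was compared on 20 two-colour oligonucleotide arrays, 1 animal in each channel. TG mice carried GFAP-IkappaBalpha-dn, bred from heterozygous transgenic males and WT females, and WT littermates were the controls. Both genotypes were naive (not immunized) or had experimental autoimmune encephalomyelitis (EAE) at 10, 17 or 80 days post-induction (dpi), induced with MOG(35-55), a myelin peptide, in complete Freund's adjuvant, with pertussis toxin. The labels give an age of 60 days for all animals, with no separate age for the late stages. Each of the 8 groups held 3 labelled animals, apart from WT at 17 dpi with 2, for which the design text states 3.

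EAE is a model of multiple sclerosis in which T cells against myelin enter the spinal cord with macrophages and damage myelin and axons. IkappaBalpha holds the transcription factor NF-kappaB in the cytoplasm until it is degraded, and the dominant-negative form keeps NF-kappaB signalling blocked. The GFAP promoter drives that form in astrocytes, while all cells of the cord contribute RNA to the arrays, so fewer cells of a type and less RNA per cell cannot be told apart in any value below. Lratd1 belongs to the proteins with an LRAT domain, named after lecithin retinol acyltransferase, which makes retinyl esters, the storage form of vitamin A. What the protein encoded by Lratd1 does is far less well known than the role of that enzyme.

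Lratd1 lies on the minus strand of chromosome 12, from 14147598 to 14152038 in GRCm38.p6, a span of 4441 bases, per RefSeq. Its promoter is shown because the transgene acts on a DNA-binding factor. The window is chr12:14151989-14152288, read 5′ to 3′ on the minus strand, with CCAAT and GGGCGG boxes of either strand in capitals.
Lratd1 promoter: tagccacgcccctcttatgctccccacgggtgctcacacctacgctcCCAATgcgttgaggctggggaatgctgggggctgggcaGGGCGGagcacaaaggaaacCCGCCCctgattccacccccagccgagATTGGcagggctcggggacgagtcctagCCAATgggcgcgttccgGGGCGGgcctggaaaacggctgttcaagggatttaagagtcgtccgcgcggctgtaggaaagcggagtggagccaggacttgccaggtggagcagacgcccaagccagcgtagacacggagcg
The window held 2 CCAAT boxes on the printed strand and 1 on the other, a motif found in 37.4% of 32851 RefSeq promoter windows of the same length. GGGCGG was present 2 times on the printed strand and 1 time on the other, and in 35.7% of all windows. The NF-kappaB consensus matched 0 times on either strand, against 8.46% of windows with at least 1 match. These are matches of letters, and neither their presence nor their absence says whether a factor binds.

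The authors deposited 1 log ratio per probe and array, with 43710 to 43894 values per array. The ratios carry no signal level, so neither how bright the Lratd1 probes were nor the presence of spinal cord markers could be checked. Both arrays of TG 1-5 stood apart at 10 dpi by high skeletal muscle genes, with values beside the marker lists. The direction of the ratios is not stated. They were read as TG over WT, as EAE over naive within a genotype, as 17 over 80 dpi in WT and as 80 over 17 dpi in TG, a working direction chosen after the values were seen. Values for the other reading, Cy5 over Cy3 as in the titles, follow the values of Lratd1, of the genes near it and of the marker lists. The 17 dpi array of TG 3 with WT 4 also stood apart, with an SD of 1.07 over its ratios against 0.29 to 0.73 on the other arrays, and results that change without it are given. Probes were fitted together across all 20 arrays in limma, with a dye effect for each probe. A probe counts as changed at an adjusted p under 0.05 over all probes.

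Lratd1 was higher in TG than in WT cord on all 4, 3 and 4 arrays at 10, 17 and 80 dpi and on 2 of 3 naive arrays, and the gap was widest at 17 dpi. Averaged over both probes, the fitted difference (TG minus WT, log2) was 0.53 without disease, 0.95 at 10 dpi, 1.89 at 17 dpi and 0.80 by 80 dpi. At 17 dpi this was a fold of 3.41 for probe 11761 and 4.04 for probe 26403. Among 43792 probes ordered by that difference from the most TG-high, the probes ranked 4 and 1. In the order Cy5 over Cy3 they ranked 4139 and 5482. Both probes were past the threshold at 10, 17 and 80 dpi, which follows from how the gene was picked. In the same direction 0.0137% of all probes passed at 10 dpi, 4.56% at 17 dpi and 0.224% at 80 dpi. In naive mice no probe of either direction passed, against 460 of 43792 with an unadjusted p under 0.05 in limma.

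**Figure D1:**
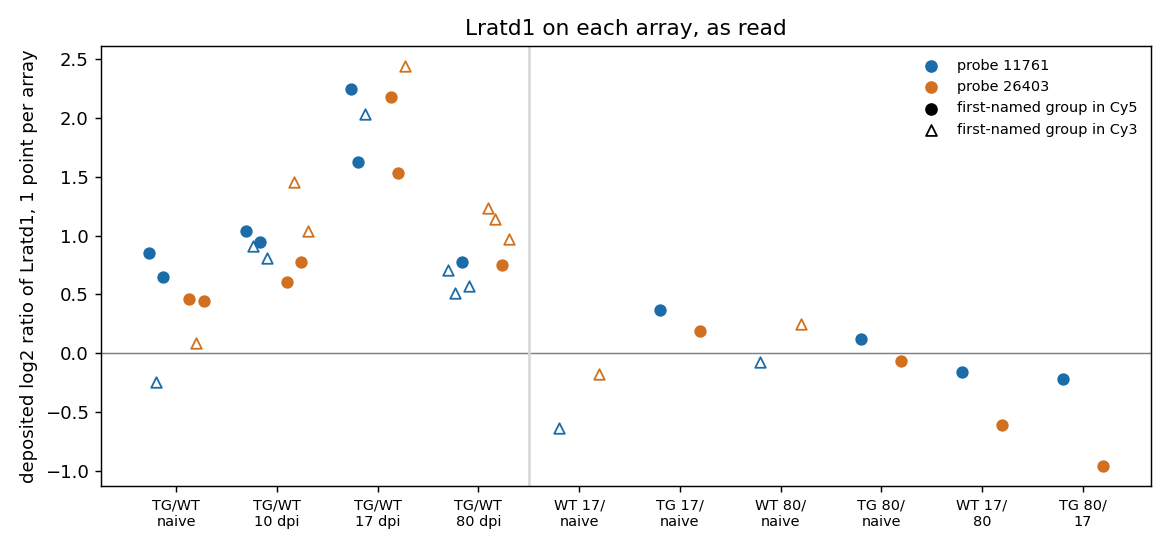
Deposited log2 ratio of each Lratd1 probe on each of the 20 arrays (1 point per array and probe, colour by probe, symbol by the dye of the first-named group); ratios of TG over WT stand left of the grey line and ratios within a genotype right of it. The 17 dpi points, from 1.53 to 2.44, lie above the points of every other comparison, and 1 naive array stands near or below 0.

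The 3 naive arrays disagreed. For probe 11761 the ratio of TG over WT was 0.85 for TG 5 with WT 2, 0.65 for TG 8 with WT 4, and -0.25 for TG 7 with WT 3. Probe 26403 gave 0.46, 0.44 and 0.09 in the same order. Thus 2 arrays showed a higher level in TG with both probes and the array of TG 7 and WT 3 did not. It was also the only naive array with TG in Cy3, so the naive arrays alone cannot tell the animals from the dye orientation. With the dye effect fitted over all arrays taken off, it gave -0.13 on probe 11761 and -0.14 on probe 26403. TG 5 with WT 2 then gave 0.73 and 0.69, and TG 8 with WT 4 gave 0.53 and 0.67. The naive arrays thus still disagreed with that effect off. In the fit to all arrays, the naive difference was 0.50 ± 0.14 (SE) for probe 11761 and 0.55 ± 0.15 for probe 26403. The 3 naive arrays alone, as deposited, gave a less certain 0.38 ± 0.23 (SE) for the mean of both probes. Without the array of TG 7 and WT 3 the fitted mean of both probes was 0.76 in place of 0.53.

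At 10 dpi all 4 arrays were above 0 with both probes. Probe 11761 gave 1.04 for TG 1-2 with WT 1-4, 0.91 for TG 1-3 with WT 10-4, 0.95 for TG 1-5 with WT 4-3 and 0.81 for TG 1-5 with WT 1-4. Probe 26403 gave 0.60, 1.45, 0.77 and 1.04. The first probe varied little (SD 0.10, n = 4 arrays) and the second more (SD 0.37), with its 2 higher values on the arrays that had TG in Cy3. The fitted differences were 0.93 ± 0.14 and 0.97 ± 0.15 (SE). Leaving out any 1 animal kept the fitted mean of both probes between 0.88 and 1.02. The 4 arrays alone gave 0.95 ± 0.08 (SE) for that mean. For probe 11761 every 10 dpi ratio but the lowest exceeded the highest naive ratio, and for probe 26403 every 10 dpi ratio exceeded it.

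At 17 dpi the ratios did not overlap those of any other stage. For probe 11761 they were 2.25 for TG 7 with WT 1, 1.62 for TG 3 with WT 4 and 2.03 for TG 7 with WT 4. For probe 26403 they were 2.18, 1.53 and 2.44. The lower value on each probe came from TG 3, and the other 2 arrays shared animal TG 7. The differences from the fit to all arrays were 1.77 ± 0.14 and 2.02 ± 0.15 (SE). The 3 arrays at 17 dpi alone gave 2.01 ± 0.21 (SE) for the mean of both probes. Without TG 7 the fitted mean of both probes was 1.54 in place of 1.89. Without the array of TG 3 and WT 4 the probes gave 1.86 and 2.10.

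At 80 dpi, long after induction, all 4 arrays were again above 0. Probe 11761 gave 0.70 for TG 26 with WT 13, 0.51 for TG 21 with WT 15, 0.77 for TG 26 with WT 15 and 0.57 for TG 27 with WT 14. Probe 26403 gave 1.23, 1.14, 0.75 and 0.97. The ratios overlapped those at 10 dpi on probe 26403 and lay below all of them on probe 11761. The differences from the fit to all arrays were 0.72 ± 0.13 and 0.89 ± 0.13 (SE). The 4 arrays at 80 dpi alone gave 0.83 ± 0.05 (SE) for the mean of both probes.

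The order of the stages by fitted difference was the same on both probes, 17 dpi, then 10 dpi, 80 dpi and naive. Next to each other in that order, 10 and 80 dpi differed by less than the sum of their standard errors, and 80 dpi and naive by less than 2 standard errors of their difference. To ask whether the genotype difference depended on disease, the naive difference was subtracted from that of each stage. At 17 dpi it was larger than in naive mice by 1.26 ± 0.19 on probe 11761 and by 1.47 ± 0.20 on probe 26403 (SE). It also exceeded the difference at 10 dpi by 0.84 ± 0.20 and 1.05 ± 0.21, and that at 80 dpi by 1.05 ± 0.18 and 1.13 ± 0.19. At 10 dpi the excess over naive was 0.42 ± 0.20 and 0.42 ± 0.21, and at 80 dpi 0.22 ± 0.18 and 0.34 ± 0.19. Without the naive array of TG 7 and WT 3, the mean excess was 1.18 at 17 dpi, 0.19 at 10 dpi and 0.07 at 80 dpi. A difference in naive mice was thus measured on 2 of 3 arrays. With standard errors from the fit to all arrays, the excess was about 2 of them at 10 dpi, less at 80 dpi, and several at 17 dpi. No p is given for these, since the arrays that chose the gene enter them.

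**Figure D2:**
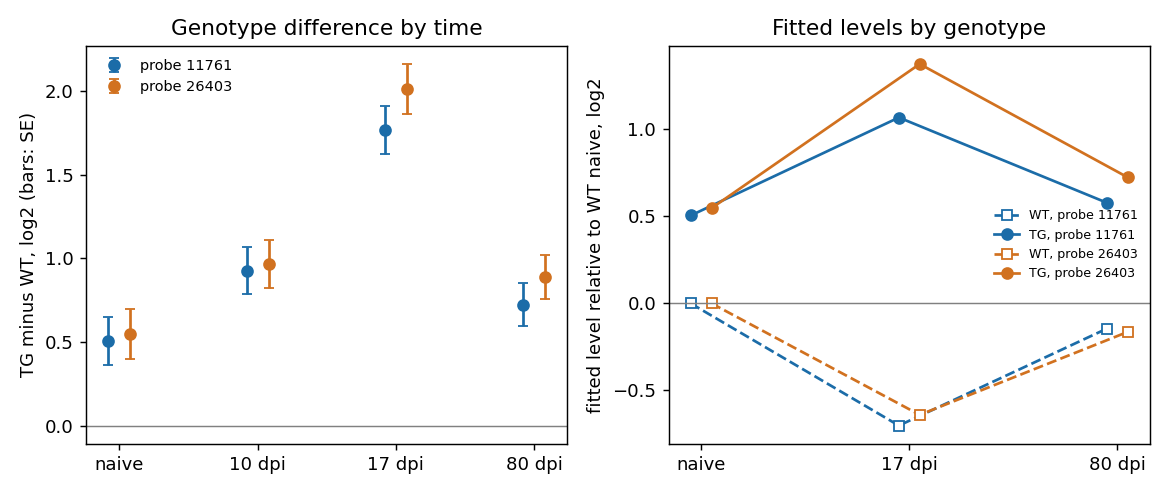
Left, fitted TG minus WT difference of Lratd1 (log2) at each stage for both probes, with bars of 1 standard error; right, fitted levels of WT (open squares) and TG (filled circles) relative to WT naive at naive, 17 and 80 dpi. The difference is largest at 17 dpi (1.77 and 2.02), where the fitted TG level is above and the WT level below that of naive mice; 10 dpi is absent at right because no array links it to another stage.

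Within each genotype, the wider gap at 17 dpi came from both sides. WT at 17 dpi was lower than WT naive by fitted values of -0.70 ± 0.19 and -0.64 ± 0.19 (SE, probes 11761 and 26403). TG at 17 dpi was higher than TG naive by 0.56 ± 0.19 and 0.83 ± 0.19. At 80 dpi both genotypes lay near their naive level, WT at -0.14 ± 0.19 and -0.16 ± 0.19 and TG at 0.07 ± 0.19 and 0.18 ± 0.19. These fitted values draw on the TG and WT arrays through shared groups.

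Only 1 array of each kind compared stages directly, and those arrays had no part in choosing the gene. The array of WT 1 at 17 dpi over WT 2 naive gave -0.63 and -0.17. TG 1 at 17 dpi over TG 5 naive gave 0.37 and 0.19. The WT ratio was below 0 and the TG ratio above 0 on both probes, also with the dye effect taken off (-0.51 and -0.40 in WT, 0.25 and 0.42 in TG). For 80 dpi over naive, WT 14 over WT 4 gave -0.07 and 0.25, and TG 27 over TG 8 gave 0.13 and -0.06. With the dye effect taken off, these 4 values lay between 0.01 and 0.17. WT 1 at 17 dpi over WT 13 at 80 dpi gave -0.16 and -0.61, and TG 21 at 80 dpi over TG 1 at 17 dpi gave -0.21 and -0.95. Both signs put 17 dpi below 80 dpi in WT and above it in TG.

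On the single stage arrays as deposited, the TG change to 17 dpi exceeded the WT change by 0.99 and 0.36 (probes 11761 and 26403). To 80 dpi the corresponding values were 0.20 and -0.31. With the dye effect taken off, the values were 0.75 and 0.82 to 17 dpi, and -0.04 and 0.15 to 80 dpi. That effect was fitted over all arrays, those that chose the gene included, so the closer match of the probes rests on them in part. No replicate stands behind any of these values. TG 1 at 17 dpi was never hybridised against a WT animal, and its difference from WT 1 can be read through the naive animals TG 5 and WT 2 over 3 arrays. That path gave 1.85 and 0.83 as deposited, and 1.49 and 1.52 with the dye effect off. The lowest direct ratios at 17 dpi with the dye effect off were 1.505 and 1.764. The like path for TG 27 and WT 14 at 80 dpi gave 0.85 and 0.13 as deposited, and 0.49 and 0.82 with the dye effect off, beside 0.69 and 0.74 on their direct array with it off. The path values pass through naive TG and WT arrays that entered the description above.

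The other reading of the ratios changes these statements. Read as Cy5 over Cy3, the mean of both probes gave a TG minus WT difference of 0.49 ± 0.40 in naive mice (SE). It was -0.11 ± 0.39 at 10 dpi, 0.34 ± 0.40 at 17 dpi and -0.36 ± 0.35 at 80 dpi. Since nearly all TG and WT ratios of Lratd1 had the same sign as deposited in both dye orientations, that reading assigns them to a dye effect of 0.66 and 0.69, against 0.12 and -0.23.

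The 2 probes followed each other closely, with a cosine of 0.934 between their ratios and Pearson's r of 0.887 over the 20 arrays, which share animals and dyes. The cosine does not depend on the direction in which an array is read. By the same measure, among 16054 probes with a value on all arrays and a root mean square ratio of at least 0.3, no other named probe came near that value. The 8 highest were Itih3 (a hyaluronan-binding serum protein, cosine 0.71), Slc10a2 (a bile acid transporter, 0.692), Hsd11b1 (which reactivates glucocorticoids, 0.692), Prm1 (a sperm protamine, 0.690), Ddx1 (an RNA helicase, 0.686), Cyp3a25 (a cytochrome P450, 0.684), Snrnp200 (a spliceosome helicase, 0.678) and Rangap1 (the activator of the Ran GTPase, 0.676). The opposite pattern was closer, with cosines of -0.861 for Mfsd1, a lysosomal transporter, -0.859 for Dhrs1, a short-chain dehydrogenase, and -0.850 for Btg1, an antiproliferative factor. Btg1 differed little between genotypes in naive mice (-0.29) and at 10 dpi (-0.13), and by -1.95 at 17 dpi. In naive mice the fitted difference of Itih3 was 0.17, that of Slc10a2 0.04 and that of Hsd11b1 -0.04, while Ddx1 stood at 0.49, close to Lratd1. Ddx1 is also a neighbour of Lratd1 on chromosome 12.

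A few probes of genes beside Lratd1 on chromosome 12 passed as well, at 17 dpi. The 5 measured protein-coding genes on each side, Vsnl1, Cyria, Mycn, Ddx1 and Nbas at lower coordinates and Trib2, Lpin1, Ntsr2, Greb1 and E2f6 at higher ones, were covered by 20 probes. None passed in naive mice, where 0% of all probes passed, at 10 dpi (0.0274% of all probes in either direction) or at 80 dpi (1.66%). At 17 dpi 3 probes rose and 1 fell, against 4.56% and 8.44% of all probes, or 13.0% in either direction. In naive mice 25% of the 20 probes had an unadjusted p under 0.05 in limma, against 1.05% of all probes. The share was 45% at 10 dpi against 6.54%, 35% at 17 dpi against 29.3%, and 45% at 80 dpi against 7.80%. Probes of 1 gene share their RNA, and neighbouring genes were looked at because Lratd1 was high, so these shares are descriptive. With ratios read as Cy5 over Cy3 the shares were 30%, 10%, 20% and 20% over the 4 stages, against 27.7%, 20.6%, 16.3% and 37.4% of all probes.

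Ddx1, an RNA helicase of the DEAD-box family, was the neighbour most like Lratd1 by cosine, while by Pearson's correlation Ntsr2 was nearer (0.730 against 0.506). On its probe 2158 the fitted difference (TG minus WT, log2) was 0.49 in naive mice, 0.48 at 10 dpi, 1.03 ± 0.18 at 17 dpi (SE; limma adjusted p = 0.00194) and 0.67 at 80 dpi. The 17 dpi ratios were 1.06, 2.52 and 0.15, the highest on the array of TG 3 and WT 4. Without that array the 17 dpi difference was 0.66 (adjusted p = 0.000353), and the probe also passed at 10 dpi (0.48, adjusted p = 0.0276) and 80 dpi (0.63, adjusted p = 0.000144). Its other probe, 24237, gave 0.07, 0.41, 0.48 and 0.58, and did not pass. Without that array it passed at 17 dpi (0.64, adjusted p = 0.0297) and 80 dpi (0.60, adjusted p = 0.0282). Vsnl1, a neuronal calcium sensor, had the opposite sign: its probes gave -0.80 ± 0.20 and -0.80 ± 0.19 in naive mice and -0.66 and -0.64 at 10 dpi, without passing. At 17 dpi its probe 33897 fell by 0.66 (SE 0.19, limma adjusted p = 0.0353), while probe 19823 stood at 0.02. Without the array of TG 3 and WT 4 probe 33897 gave -0.48 and did not pass (adjusted p = 0.15). At 80 dpi they stood at -0.42 and -0.30. There probe 33897 was above 0 on 3 of 4 arrays as deposited and below 0 on all 4 with its dye effect taken off. Cyria, which binds the GTPase Rac1, gave 0.54, 0.60, 0.11 and 0.49 over the 4 stages and did not pass. Ntsr2, a neurotensin receptor made by astrocytes, rose at 17 dpi on both probes, by 1.05 ± 0.10 (adjusted p = 2.26e-05) and 0.73 ± 0.15 (adjusted p = 0.00609), from -0.22 and -0.25 in naive mice. Trib2, Lpin1, Greb1 and E2f6, all at higher coordinates, and Mycn and Nbas did not pass at any stage. Without the array of TG 3 and WT 4, the Nbas probe 36276 passed at 17 dpi (0.45, adjusted p = 0.0047) and 80 dpi (0.40, adjusted p = 0.00453), a Greb1 probe at 17 dpi (-0.51, adjusted p = 0.0498) and a Lpin1 probe at 80 dpi (0.21, adjusted p = 0.0471). Read as Cy5 over Cy3, Ddx1 probe 2158 gave 0.79, 0.34, 0.76 and 0.22 and Vsnl1 probe 33897 gave -0.93, -0.16, -0.72 and -0.63, the last probe passing in naive mice and at 80 dpi. Other probes changed sign in that reading. Ddx1 probe 24237 gave -0.17, -0.05, -0.32 and -0.35, and the Ntsr2 probes -0.16 and -0.13 at 17 dpi. Cyria gave 0.16, 0.24, -0.34 and -0.52.

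Just outside that window, at -2.88 Mb from Lratd1, Smc6 stood out after its values were seen. Smc6 is a subunit of a complex that acts in DNA repair. Its probe 12925 gave -0.63 ± 0.17 in naive mice, -1.09 ± 0.17 at 10 dpi (limma adjusted p = 0.0436), -1.05 ± 0.17 at 17 dpi (adjusted p = 0.00111) and -0.73 ± 0.15 at 80 dpi (adjusted p = 0.0228). It was below 0 on 2 of 3 naive arrays and on all 4, 3 and 4 arrays at the later stages. The exception was again the array of TG 7 and WT 3, with 0.18 beside -0.86 and -0.95 on the other naive arrays. Ddx1 probe 2158 gave -0.18 there beside 0.97 and 0.78, though with its dye effect taken off it was above 0 on all 3 naive arrays. The other Ddx1 probe went the opposite way, with 0.96 beside -0.22 and -0.10. The 3 Smc6 probes disagreed: probe 18977 gave -0.21, -0.74, -0.66 and -0.28 over the stages, and probe 17251 values near 0. Read as Cy5 over Cy3, probe 12925 gave -0.73, 0.22, -0.27 and 0.17 and did not pass.

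**Figure D3:**
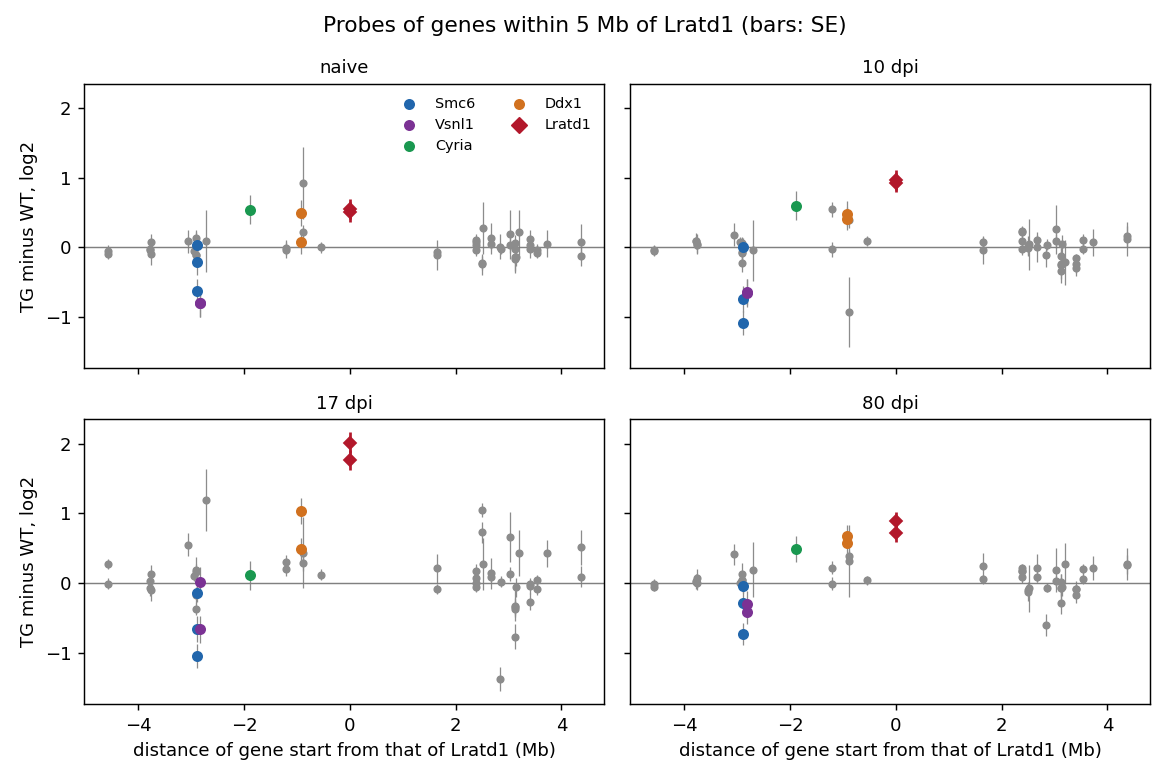
Fitted TG minus WT difference (log2, bars of 1 standard error) of every probe of genes that start within 5 Mb of Lratd1 on chromosome 12, against the distance of the gene start from that of Lratd1 in Mb, with 1 panel per stage. Lratd1 (red diamonds) lies above 0 in all panels and peaks at 17 dpi, Smc6 and Vsnl1 hold the lowest naive values, and no probe at higher coordinates reaches the Lratd1 value in naive mice.

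Within 5 Mb of Lratd1 there were 55 further probes of 29 genes. The 26 probes at lower coordinates had an unadjusted p under 0.05 in 19.2%, 34.6%, 42.3% and 30.8% of cases over the 4 stages. The 29 at higher coordinates had it in 3.45%, 13.8%, 24.1% and 17.2%, and all probes in 1.05%, 6.54%, 29.3% and 7.80%. A ranking added after the data were seen ordered the probes that kept 1 sign at all 4 stages by their smallest absolute moderated t. Of 8038 such probes, Lratd1 probe 26403 ranked 1, Smc6 probe 12925 ranked 2, Lratd1 probe 11761 ranked 3, Ddx1 ranked 5 and Vsnl1 ranked 6. Thus 5 of the top 10 probes, those of Lratd1 included, lay within 5 Mb of Lratd1, a region that holds 0.179% of probes with a position. Over naive mice and 10 dpi alone it was 6 of the top 10, out of 19464 ranked probes. The remaining top probes lay on other chromosomes, such as Ank1, which encodes a membrane anchor protein, at rank 4, or had no gene name. The ranking includes the measurements by which Lratd1 was picked, so the places of its own probes follow in part from that choice. The 5 Mb window was also set after values of these genes were seen. The count beside 0.179% is thus a description, and enrichment of the region was not tested. Read as Cy5 over Cy3, 0 of the top 10 probes of either ranking lay in that region, and both Lratd1 probes and Smc6 probe 12925 changed sign between stages and so left the ranking over 4 stages.

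No other measured gene of the LRAT domain family passed. Lrat, the retinyl ester enzyme, and Plaat1, Plaat3 and Plaat5, phospholipases and acyltransferases of the family, were measured by 9 probes, and Lratd2 was not measured. Of all probes, 0.0274% passed at 10 dpi, 13.0% at 17 dpi and 1.66% at 80 dpi, so 0 of 9 is near what the background gives. At 17 dpi 2 of the 9 probes (22.2%) had an unadjusted p under 0.05 in limma, against 29.3% of all probes, and 0 at the other stages. The largest fitted difference of the 9 at 17 dpi was that of a Plaat3 probe, at -0.58 ± 0.24 (SE, adjusted p = 0.12), and the family median there was 0.04, beside 0.04 for all probes.

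Of the 38 genes listed for retinoid uptake, storage, metabolism and receptors, 36 were measured, by 55 probes. None passed in naive mice or at 10 dpi. At 17 dpi 1 probe rose and 1 fell, against 4.56% and 8.44% of all probes. Crabp1, which binds retinoic acid in the cytoplasm, rose by 0.21 ± 0.06 (adjusted p = 0.0384). A probe of Dhrs3, which turns retinaldehyde back into retinol, fell by 0.52 (SE 0.13, adjusted p = 0.0164). At 80 dpi none rose and 2 fell, against 1.43% of all probes lower. Those were the same Dhrs3 probe, by 0.63 (SE 0.11, adjusted p = 0.00814), and a probe of Lpl, lipoprotein lipase, by 0.71 (SE 0.06, adjusted p = 2.21e-05). The other Dhrs3 probe gave -0.30 at 17 dpi and -0.52 at 80 dpi, without passing. The other Lpl probe gave -0.41 at 80 dpi and did not pass either. The list's median at 17 dpi was 0.08, against 0.04 for all probes.

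Markers of cell types moved between genotypes beside Lratd1. Macrophage and microglia markers, of which 6 of 8 were measured, had a median TG minus WT difference of 0.08 without disease, -0.78 at 10 dpi, -1.46 at 17 dpi and -1.59 by 80 dpi. At 17 dpi 6 of the 6 genes fell on at least 1 probe, and at 80 dpi 5 of them, against 8.44% and 1.43% of all probes. Such counts, here and below, are of genes while the shares are of probes, so they are not like for like. In the Cy5 over Cy3 reading the medians were -0.62, 0.50, 0.14 and 0.79. On the 17 dpi arrays the list median lay between -1.63 and -1.24, with mean Lratd1 ratios of 1.58 to 2.23. The 80 dpi arrays had close list medians, between -1.61 and -1.40, with Lratd1 ratios of 0.76 to 0.97. At 10 dpi the list median was -0.34, -1.70, -0.08 and -0.78 on the 4 arrays, where Lratd1 stood at 0.82, 1.18, 0.86 and 0.93.

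Neuron markers had medians of -0.04, 0.05, 0.41 and 0.37 over the 4 stages, with 3 of 7 genes risen at 17 dpi and 2 at 80 dpi, against 4.56% and 0.224% of all probes. Myelin markers gave -0.10, -0.14, 0.39 and 0.25. Of the 6 myelin genes measured, 2 rose and 1 fell at 17 dpi on at least 1 probe, against 4.56% and 8.44% of all probes. At 80 dpi 1 myelin gene rose, against 0.224%. Astrocyte markers, the cells in which the transgene is driven, gave 0.03, -0.29, -0.08 and -0.33, with 2 of 7 fallen at 80 dpi, against 1.43% of all probes. At 17 dpi 1 of the 7 rose and 1 fell, against 4.56% and 8.44%, with gene values from -0.40 to 0.98. Gfap, whose promoter drives the transgene, fell at 80 dpi on 2 of 3 probes, by 0.86 (SE 0.19, adjusted p = 0.0295) and 1.08 (SE 0.24, adjusted p = 0.0301). The Cy5 over Cy3 reading gave 0.49 and 0.50, and neither passed. The probe named Nfkbia, the gene of IkappaBalpha, did not pass at any stage, with 0.31 ± 0.31 in naive mice. Without the array of TG 3 and WT 4 it fell at 17 dpi, by 1.13 (adjusted p = 9.12e-05), and at 80 dpi, by 0.55 (adjusted p = 0.00427). Whether it reads the transgene is not known from the sources used here. Of 5 T cell markers measured, 4 fell and 1 rose at 17 dpi (median -0.36), against 8.44% and 4.56% of all probes, and of meningeal and fibroblast markers 4 of 4 fell at 80 dpi (median -0.46), against 1.43%. Red blood cell genes stood at 1.62 at 17 dpi, where 3 of 3 rose against 4.56% of all probes, and at 0.88 at 80 dpi, but at -0.89 at 10 dpi. Skeletal muscle genes had medians of 3.65 and 3.66 on both arrays of TG 1-5, 2.24 on that of TG 21 with WT 15 and 1.76 on that of TG 27 with WT 14. The mean Lratd1 ratio on those 4 arrays lay between 0.77 and 0.93. On the arrays of TG 27 over naive TG 8 and TG 21 over TG 1 at 17 dpi the muscle medians were 2.29 and 2.74, and the mean Lratd1 ratios 0.03 and -0.58. Read as Cy5 over Cy3, the 17 dpi medians of neuron, myelin and astrocyte markers were -0.29, -0.06 and -0.05. Those of T cell and red blood cell genes were 0.18 and 0.16. At 80 dpi the same lists gave -0.35, -0.14, -0.06, 0.14 and -0.11, and meningeal and fibroblast markers 0.31. The part of these cell types in the Lratd1 values was not tested.

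**Figure D4:**
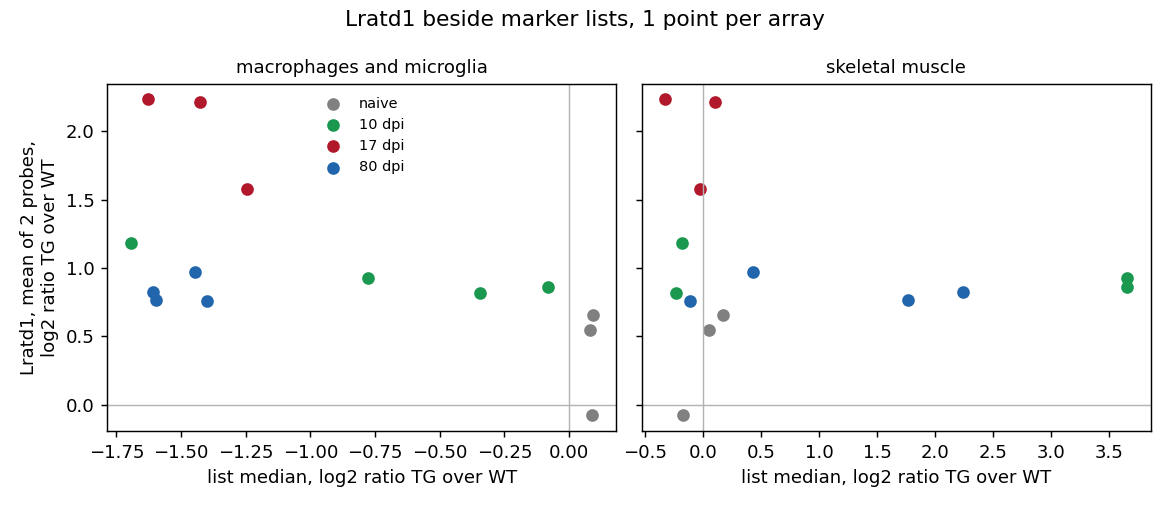
Mean log2 ratio of the Lratd1 probes (TG over WT) on each of the 14 TG and WT arrays against the median ratio of macrophage and microglia markers (left) and skeletal muscle genes (right), coloured by stage. Arrays at 17 and 80 dpi have similar macrophage medians, from -1.63 to -1.24, with Lratd1 ratios of 1.58 to 2.23 at 17 dpi and 0.76 to 0.97 at 80 dpi, and the highest muscle medians, 3.65 and 3.66, belong to 10 dpi arrays.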

How the data were processed

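Per the series' design text, global loess within arrays and limma's quantile algorithm between them preceded deposit. The authors deposited 1 log ratio per probe, taken here as log2. The base is not stated. Base 2 follows from limma's convention and a largest absolute ratio of 7.79. For the scanner, background correction and filters, nothing was given in the sources used here. Platform annotation gave 32042 probes 1 gene symbol, 47 several and 12201 none.

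Probes with values on at least 10 of 20 arrays were fitted with limma 3.58.1 functions in R 4.3.3 by generalised least squares. The model held group coefficients, a dye effect and 1 correlation between arrays sharing an animal (0.00416). Empirical Bayes used 13 residual and 1.92 prior degrees of freedom, with Benjamini-Hochberg adjustment over all probes. The fit was tested on simulated data. The number of arrays limits precision. Animals are the replicates, but several of them stood on more than 1 array. With a correlation of 0.00416, the fit treated arrays sharing an animal as almost independent. Standard errors and adjusted p thus rest on the number of arrays, not of animals.

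Members and lists were chosen with earlier results of these data known. Named are Lratd1, the 8 most and 3 least similar probes, LRAT family members, retinoid genes that passed, 5 genes on each side, Gfap and Nfkbia. Smc6, Ank1, the 5 Mb window and the fit without the array of TG 3 and WT 4 were added after seeing values. Alternatives covered direction, dye term, correlation, scaling and each animal left out.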

Additional observations from a re-analysis of the deposited data

Results flagged for a closer look

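On the arrays that compared 17 dpi with another stage within a genotype, Lratd1 went opposite ways in WT and TG with both probes. For 17 dpi over naive, the WT array gave -0.63 on probe 11761 and -0.17 on probe 26403, and the TG array gave 0.37 and 0.19. For 80 over 17 dpi, the WT array gave 0.16 and 0.61 and the TG array -0.21 and -0.95. The 17 dpi animals were WT 1 and TG 1 in both cases, so these comparisons are not independent. For 80 dpi over naive the probes differed in sign within each genotype, with -0.07 and 0.25 in WT and 0.13 and -0.06 in TG. There was 1 array of each kind, and the difference between the genotypes was not tested. The signs follow the working direction of the ratios. Dixon's test was applied to the 4 groups of 4 arrays, both probes at 10 and 80 dpi, and no array lay apart there; the naive and 17 dpi groups, with 3 arrays each, were not examined.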

How the results depend on the processing

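Values are means of both Lratd1 probes on the log2 scale. Read as Cy5 over Cy3, the TG minus WT difference was -0.11 at 10 dpi, 0.34 at 17 dpi and -0.36 at 80 dpi. The change from naive to 17 dpi was then 0.32 in WT and 0.18 in TG, and to 80 dpi 0.49 in WT and -0.36 in TG. The excess over the naive difference was -0.59 at 10 dpi, -0.14 at 17 dpi and -0.85 at 80 dpi. In that reading 4, 4, 0 and 10 probes of the LRAT family and retinoid lists passed over the 4 stages. Of the neighbouring genes 1 probe passed in naive mice, 0 at 17 dpi and 2 at 80 dpi. Of all probes 3807, 3482, 0 and 9963 passed over the 4 stages in that reading, so these counts are no result about the lists. Around closed loops of 4 and 8 arrays that share animals, ratios would cancel apart from noise. With the dye effect off, the sums were -0.06 and -0.23 in the working direction and -1.25 and -3.25 as Cy5 over Cy3. On the WT arrays of 17 and 80 dpi over naive, macrophage and microglia medians were 1.94 and 2.09. Naive was in Cy5 there, so the order Cy5 over Cy3 would put these markers higher in naive cord. Which reading is right was not tested. With arrays scaled to equal spread, the excess at 17 dpi was 1.08, 1 list probe passed at 17 dpi and 5 at 80 dpi, and 3 neighbouring probes at 80 dpi. Without a dye term 1 list probe passed at 17 dpi and 1 at 80 dpi. For the scaled fit and the fit without a dye term, the counts over all probes are not given here. The stage arrays alone gave an excess at 17 dpi of 0.68, or 0.79 with the dye effect fitted over all 20 arrays off. At 80 dpi they gave -0.056 with that effect on. Within 5 Mb, chosen after seeing the data, 1, 11 and 1 of 55 probes passed at 10, 17 and 80 dpi, against 0.0274%, 13.0% and 1.66% of all probes. Without the array of TG 3 and WT 4, also chosen after seeing the data, 1, 6 and 4 of the 20 neighbouring probes passed at 10, 17 and 80 dpi. In that fit 42, 5497 and 1315 of all probes passed at these stages. Of the 8 probes most like Lratd1, 0 were shared under Pearson's correlation and 1 without a minimum ratio.

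Leaving out each animal in turn, the TG minus WT difference stayed between 0.36 and 0.76 in naive mice, 0.88 and 1.02 at 10 dpi, 1.54 and 2.02 at 17 dpi, and 0.74 and 0.87 at 80 dpi. The change to 17 dpi stayed between -0.95 and -0.58 in WT and between 0.54 and 1.14 in TG, the last without TG 1 (1.06 without naive TG 5). The excess at 17 dpi stayed between 1.06 and 1.60. No paired analysis was possible because animal numbers in the labels name animals and do not pair groups. The ratios carry no intensity, so signal over background is unknown.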
